A study of Drosophila melanogaster with 12 samples.

Results

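The vacuolar ATPase (V-ATPase) subunit genes were taken as the probe sets that name 1 gene whose current symbol begins with Vha. This gave 32 probe sets for 31 genes, of 18952 probe sets on the array. A probe set is a group of short probes read as 1 transcript measurement. RefSeq (assembly Release 6 plus ISO1 MT) lists 33 Vha genes. The other 2, Vha68-1 and Vha68-2, encode the A subunit in most tissues and were not analysed here, so the catalytic subunit is represented by Vha68-3 alone. Total RNA of fly heads was measured on 12 Affymetrix arrays, 3 in each of 4 groups: conditioned flies at 24 h, conditioned flies at 0 h, non-conditioned flies at 24 h and non-conditioned flies at 0 h after the treatment. The labels call the treatment a behavioural stimulus and add the word OR for every array, which they do not expand. They state no age, sex, genotype or kind of conditioning. For 3 of the 6 conditioned arrays the labels name a biological duplicate and describe it no further. The labels of the other arrays do not tell whether these came from separate flies. The p-values thus reflect only array-to-array spread, which may be technical.

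The V-ATPase is a rotary proton pump of endosomes, lysosomes, secretory granules and synaptic vesicles, and of the plasma membrane of some epithelia. Its soluble V1 sector (subunits A to H) hydrolyses ATP and turns a shaft, and the shaft turns a ring of proteolipids in the membrane-bound V0 sector (subunits a, c, c'', d and e), which carries protons across the membrane. In neurons the proton gradient drives the loading of transmitter into synaptic vesicles. In Drosophila most subunits have a widely expressed gene, and several have further paralogues whose transcripts are known mainly from the testis.

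The deposited arrays were on one common scale, with medians of 19.9 to 21.8, and correlated at 0.991 or more within groups on the log2 scale. Defining head transcripts were present on every array, such as the neuronal genes elav at 623 to 766 and nSyb at 689 to 937 and the photoreceptor gene Arr1 at 5384 or more. Yolk protein transcripts were high in conditioned replicate 3 at 0 h and conditioned replicates 1 and 2 at 24 h, where Yp1 lay between 4532 and 6653 against 20.8 or less on the other 9 arrays. The 7 male accessory gland markers summed to 825 in a non-conditioned replicate at 0 h (replicate 3) and to 36.7 or less in each conditioned array. The 5 gut markers summed to 59.5 to 260 over the non-conditioned arrays at 0 h and to 58.6 or less in the other groups. In non-conditioned replicate 1 at 24 h bright probe sets were dimmer than elsewhere: its 99th percentile was 3136, against 3344 to 4074 on the other 11 arrays.

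The Vha probe sets fell into 2 classes that did not touch. Of the 32, 19 (18 genes) lay at 77.0 or above on every array, and 13 did not exceed 19.6 on any array. The brighter class covered subunits B to H of V1, every V0 subunit and the accessory subunit. Since probe sets differ in brightness for the same amount of RNA, intensities are given per probe set and are not ranked between genes.

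In the V1 sector, Vha55, the nucleotide-binding B subunit, ranged over 2042 to 2325 across the 12 arrays. Vha44 (subunit C, which links V1 to V0) ranged over 858 to 1054, and VhaSFD (subunit H, which restrains ATP hydrolysis in free V1) over 1495 to 1835. The peripheral stalk genes Vha26 (E) and Vha13 (G) lay at 3133 to 4182 and 2609 to 3697. For the rotor shaft, Vha36-1 (D) lay at 1229.8 to 1457 and Vha14-1 (F) at 1892 to 2408. The D paralogue Vha36-3 lay at 77.0 to 133.

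In the V0 sector, the a subunit genes Vha100-1 and Vha100-2 lay at 950.0 to 1167 and 545 to 617. Subunit a holds the proton path and directs the pump to its membrane, and Vha100-1 is known in flies as the neuronal form. The ring proteolipid gene Vha16-1 had a pair of probe sets, 1 with an ID ending in _at, at 3349 to 4434, and 1 ending in _s_at, at 1419 to 1913, and the c'' gene VhaPPA1-1 lay at 1771 to 2339. VhaAC39-1 (d, which joins shaft and ring) lay at 1623 to 2049.7. The small e subunit was represented by VhaM9.7-a at 1159.9 to 1505, VhaM9.7-b at 1087 to 1351 and VhaM9.7-c at 303 to 341. VhaAC45, the accessory subunit Ac45, lay at 1529 to 1975 and its relative VhaAC45RP at 1753 to 2197.

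These 19 probe sets varied little. The ratio of the brightest to the dimmest of the 12 arrays ran from 1.13 for VhaM9.7-c and Vha100-2 to 1.72 for Vha36-3, with a median of 1.26. The coefficient of variation within a group had a median of 4.10% and reached 15.9%.

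The 13 dim probe sets were the a paralogues Vha100-3, Vha100-4 and Vha100-5, the c paralogues Vha16-2, Vha16-3, Vha16-4 and Vha16-5, and 1 paralogue each of A (Vha68-3), D (Vha36-2), F (Vha14-2), c'' (VhaPPA1-2), d (VhaAC39-2) and e (VhaM9.7-d). Their means over the 12 arrays ran up to 10.8, in Vha16-4. A low intensity does not show that a transcript is absent. The 7 testis markers read on the same arrays were also dim, at 22.5 or less, among them the sperm tail gene dj at 4.80 or less. In non-conditioned replicate 3 at 0 h, the array with accessory gland transcripts, 1 of the 13 had its highest value. Their summed intensity there was 78.3, in a range of 45.1 to 85.1 over all arrays. Only conditioned replicate 2 at 24 h, at 85.1, had a higher sum.

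Several dim paralogues lie next to a relative in the genome, by gene order in the RefSeq table. Vha100-4 (dim) neighbours Vha100-2 with no protein-coding gene between them, and 1 such gene lies between VhaPPA1-2 (dim) and VhaPPA1-1. Vha16-2 and Vha16-3, both dim, are neighbours, and Vha68-3 (dim) adjoins Vha68-2.

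Changes were fitted with limma on log2(intensity + 16) over all 11261 probe sets kept after a filter on the mean, with p-values adjusted by Benjamini-Hochberg over all of them. The filter kept all 19 brighter Vha probe sets, which lay far above its limit of 8.05 on every array, and 2 of the 13 dim ones, Vha16-4 and VhaAC39-2. On the filter's scale VhaAC39-2 averaged 8.43 over the 12 arrays and 7.37 without conditioned heads at 24 h, so it was tested only through the group in which it is highest. The other 11 were not tested.

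**Figure D1:**
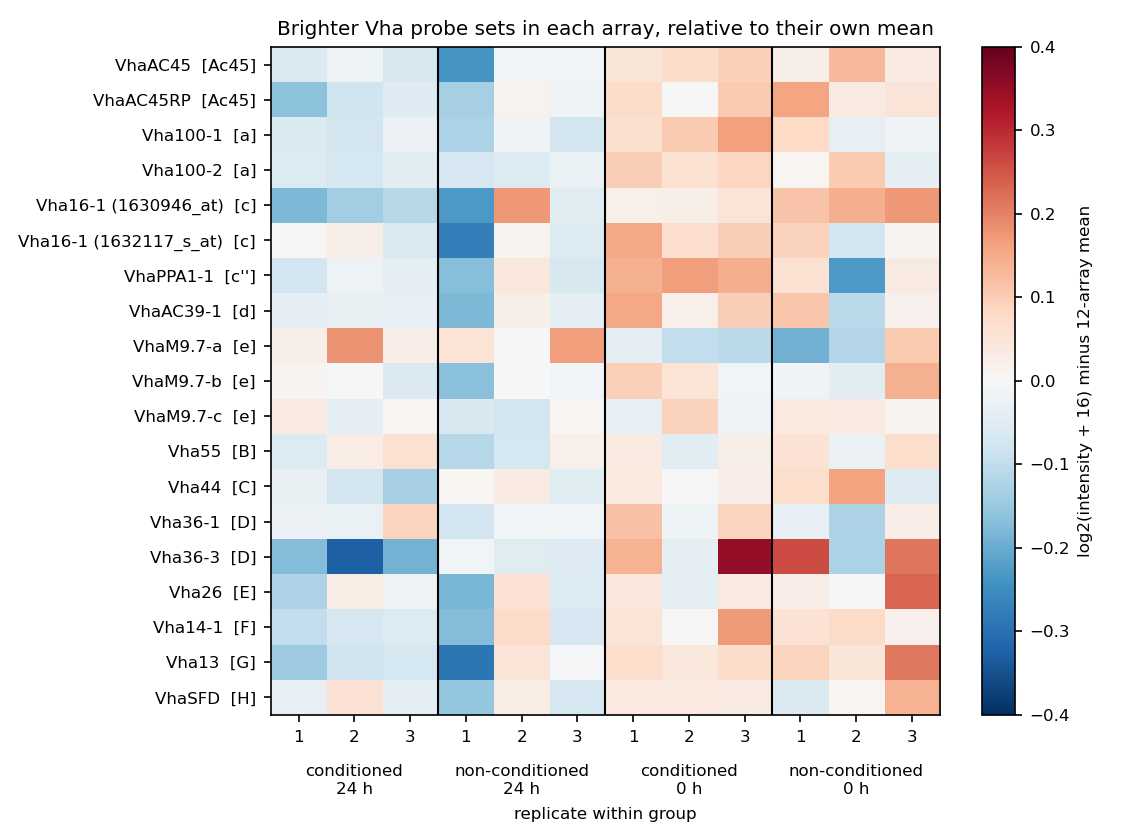
Each cell is the log2(intensity + 16) of a brighter Vha probe set on an array minus that probe set's mean over the 12 arrays, with the subunit in brackets, arrays grouped by condition and replicate, and the colour scale running from -0.4 to 0.4. The 0 h arrays are mostly red and the 24 h arrays mostly blue, except replicate 2 of both non-conditioned groups. There, 10 of the 19 probe sets at 0 h and 8 at 24 h lay below their own mean. Non-conditioned replicate 1 at 24 h is the darkest blue column, and VhaM9.7-a runs the other way.

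Immediately after conditioning, the pump transcripts of conditioned heads lay close to those of non-conditioned heads. Of 21 Vha probe sets tested at 0 h, limma called 0 at an adjusted p under 0.05, where 0.577% of all probe sets were called, and 1 had an unadjusted p under 0.05 (12.2% of all). The fitted log2 differences of the 19 brighter probe sets had a median of 0.01, the same as over all probe sets tested (0.01), with 8 below 0 (47% of all). Over the 926 tested probe sets with a mean intensity above 1000, which 15 of the Vha probe sets belong to, the median was -0.03.

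VhaPPA1-1, of the proteolipid ring, had the lowest p-value of the members at 0 h. Its intensities were 2295, 2339 and 2303 in conditioned heads and 2171, 1771 and 2133 in non-conditioned heads. The conditioned arrays all lay above the non-conditioned ones, as in 9.84% of all probe sets, and a single non-conditioned array, replicate 2, was far below its group. The log2 difference was 0.20 ± 0.08 (SE, adjusted p = 0.299), and it was 0.10 without that replicate.

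Vha36-1, of the shaft, had 1457, 1327 and 1428 in conditioned heads and 1312, 1229.8 and 1366 in non-conditioned heads. Vha100-1 had 1086, 1119.9 and 1167 in conditioned heads and 1100.1, 1016 and 1029.5 in non-conditioned heads. In both genes the groups overlapped, and the log2 differences of 0.11 and 0.10 did not pass (adjusted p = 0.461 and 0.487). The pair of Vha16-1 probe sets pointed in opposite directions at 0 h, with -0.11 for the _at probe set and 0.10 for the _s_at probe set, neither past the threshold. The conditioned arrays of the _at probe set lay below the non-conditioned ones without overlap (7.71% of all probe sets did so). The 95% intervals of the 19 differences reached from -0.29 (Vha16-1) to 0.36 (VhaPPA1-1), and 15 of them lay within 0.25 of 0.

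Conditioned heads at 24 h were set against non-conditioned heads at 24 h to ask for a later effect. No Vha probe set was called by limma (0 of 21, and 0% of all probe sets), and 1, VhaAC39-2, had an unadjusted p under 0.05 (4.33% of all). The 19 brighter probe sets had a median log2 difference of 0.02, against 0.00 over all probe sets, and 7 lay below 0 (50% of all). This median was -0.03, with 13 below 0, without non-conditioned replicate 1 at 24 h, the array with dim bright probe sets. The 95% intervals reached from -0.41 (Vha36-3) to 0.25 (Vha16-1).

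The lowest p-value at 24 h belonged to VhaAC39-2, the dim d paralogue, with 11.6, 11.2 and 12.9 in conditioned heads and 4.83, 1.23 and 10.8 in non-conditioned heads. The conditioned arrays lay higher without overlap, as 5.31% of all probe sets did. All of these values are low, and the conditioned 24 h arrays are those that carried it over the filter, so its difference is given as a description. The log2 difference of 0.39 ± 0.15 (adjusted p = 0.999) depends on the offset of 16: it was 1.27 with an offset of 1, 0.13 with an offset of 64, and 0.17 without the 3 arrays with yolk transcripts.

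Vha36-3 had 87.4, 77.0 and 86.2 in conditioned heads at 24 h and 99.6, 96.6 and 96.3 in non-conditioned heads at 24 h. All conditioned arrays were below all non-conditioned arrays, as in 5.16% of all probe sets, but the difference of -0.19 ± 0.10 did not pass (adjusted p = 0.999). Vha44 had 923, 894 and 858 in conditioned heads and 947, 964 and 909.6 in non-conditioned heads, with overlap and a difference of -0.08 (adjusted p = 0.999).

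Whether the conditioning effect differed between 24 h and 0 h was tested as an interaction. None of the 21 Vha probe sets was called by limma, as was 0% of all probe sets, and 0 had an unadjusted p under 0.05 (7.19% of all). Of the 19 brighter ones, 10 lay below 0 (52.2% of all). The lowest unadjusted p-values belonged to VhaAC39-2 with 0.45 ± 0.21, which rests on the same conditioned 24 h arrays, VhaPPA1-1 with -0.18 ± 0.11 and Vha36-3 with -0.23 ± 0.15 (adjusted p = 0.693, 0.788 and 0.794). VhaPPA1-1 had 1971, 2053 and 2026 in conditioned heads at 24 h and 1847, 2148 and 1991 in non-conditioned heads at 24 h, so the groups overlapped at that time. The intervals were wide here: those of the 19 brighter probe sets reached from -0.54 to 0.33, and 12 lay within 0.25 of 0.

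Between the times, most pump transcripts lay slightly lower at 24 h than at 0 h, in conditioned and in non-conditioned heads. Of the 19 brighter probe sets, 16 had a lower group mean at 24 h in both arms, which share no array. VhaM9.7-a was higher in both, and Vha55 and Vha36-1 were mixed. Over all probe sets tested 33.0% were lower in both arms, and over the 926 with a mean above 1000 it was 54.5%. In bulk tissue, fewer cells of a type and less RNA per cell cannot be told apart.

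In conditioned heads, 1 of the 21 tested Vha probe sets was called lower at 24 h than at 0 h (1.97% of all probe sets were), and 0 higher. Calls in either direction made up 4.67% of all probe sets, and 7 Vha probe sets had an unadjusted p under 0.05, 6 lower and 1 higher (18.2% of all). The called gene was Vha36-3, a paralogue of the D subunit of the rotor shaft. It had 87.4, 77.0 and 86.2 in conditioned heads at 24 h, against 112, 97.6 and 133 in conditioned heads at 0 h. The groups did not overlap, and the 0 h arrays were widely spread. Its log2 difference was -0.38 ± 0.10 (SE, 95% interval -0.60 to -0.16, adjusted p = 0.0462), a ratio of 0.769. The call was lost when any of 7 arrays was left out, namely each conditioned array except replicate 2 at 0 h and replicate 3 of both non-conditioned groups. Without the 3 arrays with yolk transcripts, which left a lone conditioned array at 24 h, the difference was -0.30. Its widely expressed paralogue Vha36-1 had a difference of -0.05 (95% interval -0.17 to 0.07). In non-conditioned heads Vha36-3 had 99.6, 96.6 and 96.3 at 24 h, against 124, 90.9 and 119 at 0 h, with overlap and a difference of -0.15 ± 0.10 (adjusted p = 0.488).

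**Figure D2:**
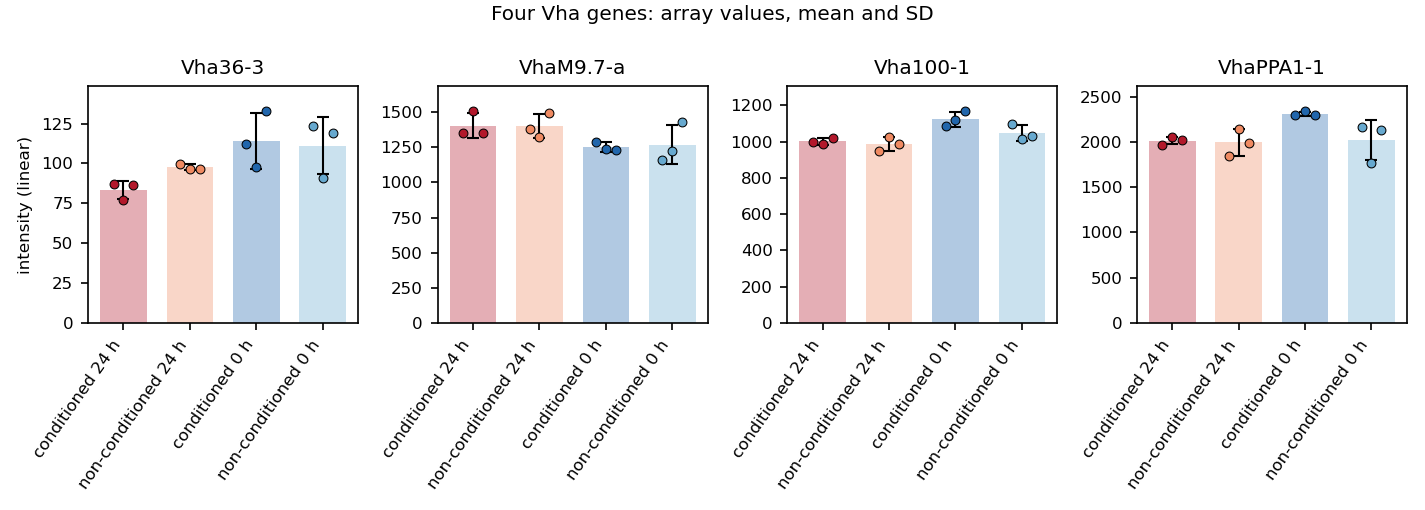
Linear intensities of Vha36-3, VhaM9.7-a, Vha100-1 and VhaPPA1-1, with bars for the group mean, error bars for the SD (n = 3) and points for the arrays. Vha36-3 averaged 83.6 ± 5.7 in conditioned heads at 24 h and 114 ± 17.6 in conditioned heads at 0 h, while VhaM9.7-a averaged 1402 ± 89.4 and 1252 ± 32.6 in the same groups.

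The a subunit genes came next by p-value in conditioned heads. These values share their 0 h arrays with the comparison of conditioned and non-conditioned heads at 0 h. Vha100-1 had 998, 987 and 1021 at 24 h, against 1086, 1119.9 and 1167 at 0 h. Vha100-2 had 550.2, 545 and 554 at 24 h, against 613, 598 and 608 at 0 h. In both, every 24 h array lay below every 0 h array by a small margin, and the differences of -0.16 ± 0.05 and -0.14 ± 0.05 did not pass (adjusted p = 0.107 and 0.152). In all, 12 of the 19 brighter probe sets had 24 h arrays entirely below the 0 h arrays in conditioned heads, where 14.9% of all probe sets did. Among probe sets with a mean above 1000 it was 9 of 15 Vha probe sets and 32.3% of the 926. VhaPPA1-1 (-0.20), Vha16-1 (-0.17 and -0.12), Vha13 (-0.16), VhaAC45RP (-0.16), Vha14-1 (-0.15), VhaAC39-1 (-0.12), VhaAC45 (-0.12) and Vha44 (-0.10) were the others, in log2 differences of which none passed.

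In non-conditioned heads, limma called 0 of 21 Vha probe sets between 24 h and 0 h, where 5.22% of all probe sets were called (2.07% lower), and 2 had an unadjusted p under 0.05 (17.9% of all). Vha13, of the peripheral stalk, had 2609, 3307 and 3174 at 24 h, against 3396, 3301 and 3697 at 0 h. Its groups overlapped, with replicate 1 at 24 h far below the other arrays, and its log2 difference was -0.20 ± 0.08 (adjusted p = 0.179). VhaAC45, the accessory subunit, had 1529, 1793 and 1790.0 at 24 h, against 1834, 1975 and 1845 at 0 h. Its groups did not overlap, and the same replicate stood far below the rest (difference -0.15 ± 0.07, adjusted p = 0.246). The _at probe set of Vha16-1, the ring proteolipid, had 3349, 4433 and 3805 at 24 h, against 4253, 4344 and 4434 at 0 h. Here replicate 2 at 24 h was as bright as the 0 h arrays, and the difference of -0.18 ± 0.08 did not pass (adjusted p = 0.281). Groups that did not overlap were seen in 3 of the 19, all lower at 24 h (VhaAC45, VhaAC45RP and VhaM9.7-c), where 9.19% of all probe sets were. Among probe sets with a mean above 1000 it was 2 of 15 Vha probe sets (13.3%) and 15.3% of the 926.

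**Figure D3:**
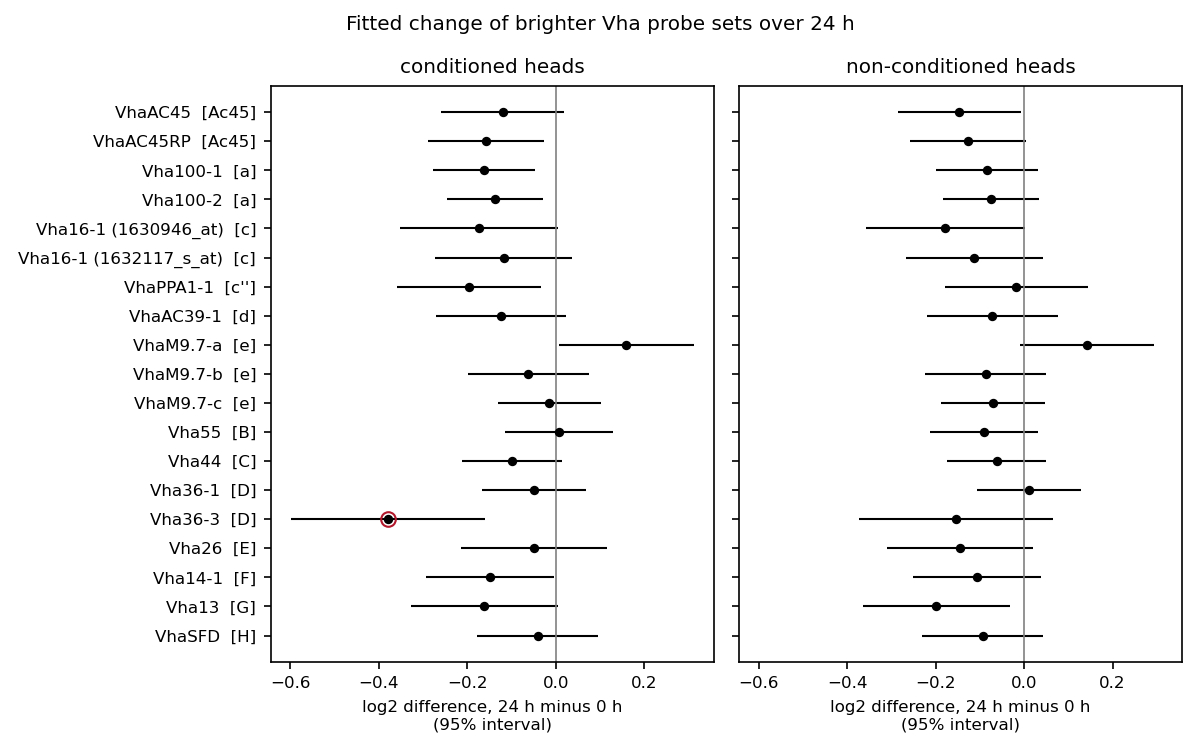
Fitted log2 differences, 24 h minus 0 h, of the 19 brighter Vha probe sets with 95% intervals, for conditioned heads (left) and non-conditioned heads (right). A red ring marks an adjusted p under 0.05, which Vha36-3 reached in conditioned heads, and 17 of 19 values lie below 0 in each panel.

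The shift of the brighter Vha probe sets as a class was small. Their median log2 difference, 24 h minus 0 h, was -0.12 in conditioned heads and -0.09 in non-conditioned heads. In each, 17 of 19 lay below 0, where 53.1% and 50.1% of all probe sets did. Among the 926 with a mean above 1000 it was 62.5% and 68.4%, and 13 of the 15 Vha probe sets there in each arm. Over all probe sets tested the medians were -0.01 and 0.00. Over those with a mean above 1000 they were -0.05 and -0.06. Quantile normalization, which gives every array the same distribution, brought the last 2 values to -0.01 and 0.00 and the Vha medians to -0.09 and -0.06. Without non-conditioned replicate 1 at 24 h, the medians in non-conditioned heads were -0.06 for Vha probe sets and -0.01 for all above 1000.

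Array by array, the 19 probe sets had their lowest value of the 12 arrays in non-conditioned replicate 1 at 24 h in 11 cases. Their median deviation from the 12-array mean was -0.15 on that array, and -0.11 for all probe sets above 1000. On the 3 conditioned arrays at 24 h the Vha median lay between -0.06 and -0.03, against 0.02 to 0.08 on the 3 conditioned arrays at 0 h. On the other non-conditioned arrays it was 0.01 and -0.04 at 24 h (replicates 2 and 3) and 0.06, -0.002 and 0.04 at 0 h, so the times overlapped there. Replicate 3 of the non-conditioned 0 h arrays, with accessory gland transcripts, held the highest value for 6 of the 19. Without it, the median time difference in non-conditioned heads was -0.10 for these Vha probe sets and -0.04 for all above 1000.

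**Figure D4:**
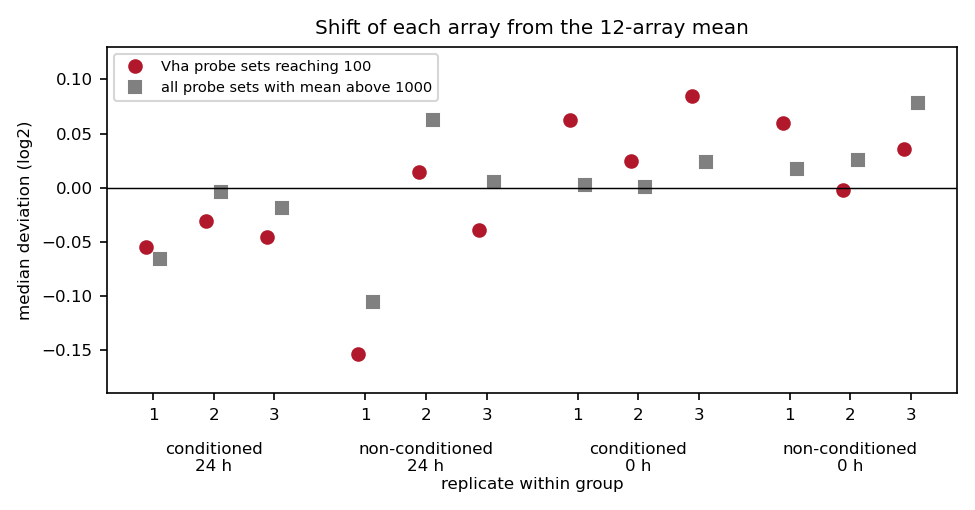
For each array, the median over probe sets of log2(intensity + 16) minus the probe set's 12-array mean, for the 19 brighter Vha probe sets (red circles) and all 926 tested probe sets with a mean above 1000 (grey squares). Non-conditioned replicate 1 at 24 h is lowest in both, and in conditioned heads the Vha medians at 24 h all lie below those at 0 h.

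Averaging the 24 h minus 0 h difference over both arms was chosen after these values were seen. It used all 12 arrays and limma called 4 of 21 Vha probe sets lower, where 5.22% of all probe sets were (12% in either direction). In all, 11 Vha probe sets had an unadjusted p under 0.05 (24.5% of all), and 18 of the 19 brighter ones lay below 0 (52.3% of all). The called ones were Vha36-3 (-0.27 ± 0.07, adjusted p = 0.025), Vha13 (-0.18 ± 0.06, 0.0443), VhaAC45RP (-0.14 ± 0.04, 0.0463) and Vha100-1 (-0.12 ± 0.04, 0.0479). Among probe sets with a mean above 1000, 3 of 15 Vha probe sets (20%) and 15.4% of the 926 were called lower, and 66.3% of the 926 lay below 0. The called genes belong to the shaft, the peripheral stalk, the accessory subunit family and the membrane sector. Vha13 had 2885, 3019 and 3036 in conditioned heads at 24 h, against 3349.9, 3295 and 3357 at 0 h, without overlap. Vha100-1 had 950.0, 1029 and 987 in non-conditioned heads at 24 h, against 1100.1, 1016 and 1029.5 at 0 h, with overlap. VhaAC45RP had 1753, 1862 and 1896 in conditioned heads at 24 h, against 2071, 1966 and 2116 at 0 h, and 1794, 1986 and 1946 in non-conditioned heads at 24 h, against 2197, 2017 and 2041 at 0 h. Both arms were lower at 24 h without overlap. The count of 4 ranged from 0 to 9 as single arrays were left out.

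VhaM9.7-a, a paralogue of the small e subunit, ran against the rest and was singled out after its values were seen. It had 1348, 1505 and 1353 in conditioned heads at 24 h, against 1289.6, 1237 and 1230.0 at 0 h. In non-conditioned heads it had 1379, 1326 and 1492 at 24 h, against 1159.9, 1221 and 1427 at 0 h. The conditioned groups did not overlap (24 h was higher so in 13.2% of all probe sets), the non-conditioned ones did, and the log2 differences of 0.16 ± 0.07 and 0.14 ± 0.07 did not pass (adjusted p = 0.248 and 0.318). Averaged over arms it was 0.15 ± 0.05 (adjusted p = 0.0648). The e paralogues VhaM9.7-b and VhaM9.7-c had averaged differences of -0.07 and -0.04 (adjusted p = 0.355 and 0.563). Of the dim paralogues tested, VhaAC39-2 (d) had a difference of 0.21 in conditioned and -0.23 in non-conditioned heads, and Vha16-4 (c) had -0.08 and 0.15, none of which passed.

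Marker levels of other tissues were read beside these values, without a test. The photoreceptor sums (Arr1 and Arr2) overlapped between the times in both arms. The 4 fat body markers, which include the yolk genes, summed to 825 to 1009 in non-conditioned heads at 24 h. That was above the 422 to 605 at 0 h without overlap. In conditioned heads, where some arrays had yolk transcripts, the fat body sums overlapped. The 3 muscle markers on the array (up, Mlc2 and Act88F, none at 0) summed to 1136 to 1168 in conditioned heads at 24 h, against 1383 to 1464 at 0 h. In non-conditioned heads they summed to 1120 to 1191 at 24 h, against 1377 to 1588 at 0 h. The 3 neuronal markers summed to 1497 to 1545 in conditioned heads at 24 h, against 1549 to 1744 at 0 h. In non-conditioned heads the neuronal sums were 1466 to 1524 at 24 h, against 1480 to 1583 at 0 h. The 3 glial markers summed to 4849 to 5209 in conditioned heads at 24 h, against 5246 to 5530 at 0 h. In non-conditioned heads the glial sums were 4671 to 5494 at 24 h, against 5531 to 6055 at 0 h. Of the genes listed for Malpighian tubule, 3 were read (Irk2, Irk3 and bin3). Irk2 made up most of their sum, at 621 to 746 across arrays. The sum is a reading of these 3 genes and does not show tubule tissue in heads. It was 839 to 856 in conditioned heads at 24 h, against 852 to 898 at 0 h. In non-conditioned heads it was 805 to 868 at 24 h, against 915 to 959.9 at 0 h. The muscle and glial sums were lower at 24 h without overlap in both arms. So were the neuronal sums in conditioned heads and the sums of Irk2, Irk3 and bin3 in non-conditioned heads. Gs2 made up most of the glial sum. The glial marker repo was higher at 24 h, with means of 358 against 337 in conditioned and 408 against 361 in non-conditioned heads, and moody was lower in both. In conditioned heads brp was higher at 24 h (82.0 against 71.5), and elav and nSyb were lower. The part of any of these tissues in the Vha values was not tested.

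Genes that act with the pump gave few calls. Of the listed assembly and regulatory genes, 4 were measured, with 6 probe sets. None passed in any of the 5 comparisons, where between 0% and 5.22% of all probe sets did. The accessory subunit gene ATP6AP2 followed the Vha genes in value, with 1886, 1887 and 1889 in conditioned heads at 24 h, against 2127, 2031 and 2159 at 0 h (difference -0.16 ± 0.06, adjusted p = 0.207). Rbcn-3B, of the complex that assembles V1 onto V0, had 344, 363 and 366 in conditioned heads at 24 h, against 309, 304 and 338 at 0 h (difference 0.17 ± 0.06, adjusted p = 0.142). Mitf, the transcription factor known in flies to control V-ATPase genes, was dim, at 55.2, 57.2 and 49.5 in conditioned heads at 24 h, against 37.7, 42.6 and 43.4 at 0 h (difference 0.29 ± 0.12, adjusted p = 0.223). In conditioned heads the 24 h arrays of Rbcn-3B and Mitf lay above their 0 h arrays and those of ATP6AP2 below, where 13.2% and 14.9% of all probe sets were so placed. In non-conditioned heads the differences were -0.02 for Rbcn-3B, -0.09 for Mitf and -0.10 for ATP6AP2 (adjusted p = 0.909, 0.767 and 0.487).

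Vesicular transporters, which use the proton gradient to load transmitter, had 0 of 8 probe sets called in each of the 5 comparisons, where between 0% and 5.22% of all probe sets were. Of 24 lysosomal and tethering genes tested, 2 rose and 1 fell at 24 h in conditioned heads (12.5% of the list, against 4.67% of all probe sets) and 1 rose in non-conditioned heads (4.17%, against 5.22%). Averaged over arms, 2 rose and 2 fell (16.7%, against 12%). LManII, a lysosomal alpha-mannosidase gene, rose in both arms, by 0.36 (adjusted p = 0.00136) in conditioned and 0.36 (0.000787) in non-conditioned heads. Its paralogue LManI rose by 0.51 (0.00146) in conditioned heads, and Cln3, an endolysosomal membrane protein gene, fell, with a difference of -0.33 (0.0149). In non-conditioned heads LManI and Cln3 had 0.27 and -0.03 (adjusted p = 0.0604 and 0.878). Conditioned minus non-conditioned heads at 0 h, which share the conditioned 0 h arrays, gave -0.33 and 0.30 (adjusted p = 0.0834 and 0.0884). The mitochondrial ATP synthase is the related rotary enzyme that makes ATP. Its 15 probe sets had medians of -0.15 in conditioned and -0.14 in non-conditioned heads, against -0.05 and -0.06 over all with a mean above 1000. In conditioned heads 0 were called, against 4.67% of all probe sets. There 10 of the 15 had 24 h arrays entirely below the 0 h arrays, where 14.9% of all probe sets did. Over those with a mean above 1000 it was 32.3%. In non-conditioned heads 1 fell, ATPsyndelta, by 0.30 on the log2 scale (adjusted p = 0.0154). That is 6.67% of the list, where 2.07% of all probe sets fell and 5.22% were called in either direction. Averaged over arms, 2 of the 15 were called lower, where 5.22% of all probe sets were. These were ATPsyndelta (-0.27, adjusted p = 0.00177) and ATPsynD (-0.18, 0.0334). In all, 11 of the 15 had an unadjusted p under 0.05, where 24.5% of all probe sets did.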

How the data were processed

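The authors deposited 1 linear intensity per probe set and array. The program, background correction and filters that made it are not given here by any label or header. Each array had a 2%-trimmed mean of 150.004, so scaling took place before deposit. No column was left without a sample. Precision is limited by the number of arrays.

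Gene names came from the platform annotation, updated through gene identifiers in RefSeq (13544 of 13647 probe sets with 1 symbol matched, 402 had several symbols and 4720 none). After removal of 183 control probe sets, log2(intensity + 16) was taken of the deposited values without further normalization, since array medians ranged over 0.075, below the limit of 0.2 for quantile normalization. The upper 60% by mean log2 value were kept (11261 probe sets). The mean of linear intensities was run first as the filter, and the log2 mean was settled on after Vha results of both had been seen, which gave the same Vha calls. limma 3.58.1 in R 4.3.3 fitted 4 group means plus a title covariate (whether # occurs in the sample title), with eBayes and a trend, leaving 7 residual degrees of freedom. All tests are two-sided. The offset shrinks the fold changes of dim probe sets.

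All Vha probe sets are named. Array values are given for those past the threshold and, per comparison, the 3 of lowest p. A probe set that reaches 100 on no array is called dim. The fit was tested on simulated data. Members, lists and tests were chosen with earlier results of these data known. Alternatives covered the title term, normalization, offset, filter, variance model, array weights and left-out arrays.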

Additional observations from a re-analysis of the deposited data

How the results depend on the processing

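Counts of called Vha probe sets at 0 h, at 24 h and for the interaction were 0 under all 24 alternatives. For 24 h against 0 h in non-conditioned heads the count of 0 became 2 without non-conditioned 24 h replicate 2 (Vha13 and Vha16-1, adjusted p = 0.0166 and 0.00594), so the range over left-out arrays was 0 to 2. In conditioned heads the count of 1 became 0 without the title term, with an offset of 64 and in the 8 # arrays alone. It was also 0 without a filter and without the variance trend, and 2 with array weights, which added Vha100-1. It ranged from 0 to 1 as single arrays were left out, and the adjusted p of Vha36-3 from 0.0274 to 0.253. Over the other alternatives, the fit without the yolk arrays aside, that adjusted p ran from 0.024 to 0.377. Averaged over arms, the 4 calls dropped to 0 without a filter, without the trend and in the # arrays alone. The count was 2 with median centring, and 7 with quantile normalization or array weights. It ranged from 0 to 9 as arrays were left out, lost to 0 without conditioned 0 h replicate 1 or 3, conditioned 24 h replicate 2, the first non-conditioned 0 h array or the third non-conditioned 24 h array. It was 1 without the second array of either 0 h group or without conditioned 24 h replicate 1 or 3, 2 without the first non-conditioned 24 h array and 9 without the second. VhaM9.7-a was among the 7 with either setting. The values of Vha36-3, Vha13, VhaAC45RP and Vha100-1 in these comparisons kept their direction under every alternative run.

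Median changes over the Vha probe sets tested moved by less than the spread of single-array medians within groups (SD 0.0513), with 1 exception. The interaction without non-conditioned 24 h replicate 1 had -0.071 (left-out arrays gave -0.071 to 0.032). This yardstick is wide beside the medians: without that array the time difference in non-conditioned heads went from -0.09 to -0.06, which counted as unmoved. The alternatives that left out a group's arrays also left fewer arrays, and without the 3 yolk arrays the lone conditioned 24 h array is assumed to vary like the others. That array has no # in its title, and the conditioned 0 h arrays left all have one. The time difference in conditioned heads then depends on the title term, estimated from non-conditioned heads alone. That fit cannot show what the yolk arrays contribute, so its adjusted p-values and calls over time are not given. Filtering on linear means, the version run first, changed no count of Vha calls. No paired analysis was possible because replicate numbers follow the order of the series and pair no arrays. An interval that holds 0 and lies within 0.25 of it leaves differences below that size on the log2 scale undecided. One that reaches beyond 0.25 leaves larger differences undecided too.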
